A study of Mus musculus with 6 samples.

Results

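Oxidative phosphorylation is the chain of 5 protein complexes in the inner mitochondrial membrane that passes electrons from NADH and succinate to oxygen and uses the resulting proton gradient to make ATP. Complexes I to IV carry the electrons, and the ATP synthase makes the ATP. Its subunits are encoded in both genomes, since the mitochondrial genome keeps a small set of core subunits while the nuclear genome encodes the remaining core subunits, all of complex II and the accessory subunits. The genes were chosen by name from the deposited table: nuclear genes whose names begin with Ndufa, Ndufb, Ndufc, Ndufs, Ndufv, Sdha to Sdhd, Uqcr, Cox4i, Cox5, Cox6, Cox7, Cox8 or Atp5, and the protein-coding genes of the mitochondrial genome, leaving out names beginning with Ndufaf or carrying -ps. This gave 107 of the 55487 genes in the table, 94 nuclear and 13 mitochondrial. The 4 genes *Sdhaf1* to *Sdhaf4* match these letters but encode assembly factors of complex II, and they were described apart from its subunits. *Ndufa4* and *Ndufa4l2*, which carry names of complex I, were counted with complex IV, where the NDUFA4 protein belongs.

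RNA-seq was performed on dental epithelium of the first mandibular molar (M1) at PN2.5, when the epithelium lays down enamel and begins to form the root sheath. The control group was 3 libraries from *Wnt10a fl/fl* mice, in which both *Wnt10a* alleles are floxed, and the cKO group was 3 libraries from *K14-Cre;Wnt10a fl/fl* mice, in which Cre under the keratin 14 promoter deletes *Wnt10a* in the epithelium. The comparison addresses how the epithelial transcriptome differs when *Wnt10a*, a Wnt ligand, is deleted there. Each library was a pool of dental epithelium from 4 molars according to the deposited design (the paper's methods give another number), so a library does not stand for 1 animal, and in such bulk samples fewer cells of a type and less RNA per cell cannot be told apart. Values are TPM (transcript abundance per length, scaled to a fixed total in each library). Levels can be compared between genes only roughly, since some genes have copies with the same letters and values ran with GC content and length of the transcript. How deeply each library was sequenced is unknown, since TPM do not keep it. *Wnt10a* itself was at 56.0, 51.2 and 57.9 TPM in the control libraries, against 22.7, 21.8 and 32.2 TPM in the cKO libraries.

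Replicate 3 of both groups stood apart. In these libraries genes of high GC content lay above their mean and the summed mitochondrial genes lay below those of the other libraries (*mt-Nd3*, and in control *mt-Co3*, were highest there), so the counts that lead below are given with and without them. Of 14 markers of dental epithelium 13 were above the filter, and their summed level was 205808 to 247810 TPM in control libraries, against 101985 to 216349 TPM in cKO libraries. Markers of other cells were lower: the 10 dental mesenchyme and odontoblast markers summed to 3672 to 7379 TPM in control libraries, against 4812 to 5519 TPM in cKO libraries. Of the 10 skeletal muscle markers 1 passed the filter, and their sum was 6.56 to 7.33 TPM in control libraries, against 4.21 to 8.5 TPM in cKO libraries. The 6 erythroid markers summed to 1326 to 1978 TPM in control libraries, against 1161 to 1282 TPM in cKO libraries, and the 5 endothelial markers to 60.2 to 95.5 TPM and 47.7 to 67.3 TPM. By the criteria below, 1 of 5 tested erythroid and 2 of 5 tested endothelial markers were lower, beside 2.47% of all genes tested. The 6 macrophage and leukocyte markers summed to 52.0 to 71.9 TPM and 49.9 to 54.2 TPM, and the 4 Schwann cell and neuron markers to 106 to 119 TPM and 89.95 to 139 TPM. No marker of these lists was at 0 in every library, and the part of these cells in the results was not tested.

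The mitochondrial genome is compact, and copies of it lie in the nuclear genome, which bears on how reads were assigned to the 13 mitochondrial genes. The genes *mt-Atp8* and *mt-Atp6*, encoding the subunits of the ATP synthase that stay in the mitochondrial genome, share 43 bases of chrM:7927-7969 (GRCm38, plus strand). The end of *mt-Atp8* (chrM:7907-7969) and the start of *mt-Atp6* (chrM:7927-7989) are shown with the shared bases in capitals.
mt-Atp8: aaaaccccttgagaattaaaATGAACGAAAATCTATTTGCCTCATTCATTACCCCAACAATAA
mt-Atp6: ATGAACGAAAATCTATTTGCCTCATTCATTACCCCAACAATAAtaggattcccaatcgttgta
Of the 13 genes, 6 also have an annotated pseudogene on the minus strand of chromosome 1 that matches the gene over at least 99% of the aligned bases. Only copies with a mean of 1 TPM or more were kept, so copies with lower values are not counted. *Gm28661* (chr1:24614885-24615565) is identical to *mt-Co2* (cytochrome c oxidase subunit 2) over 681 bases and lacks only the last 3 bases of the gene. The last 60 bases of *mt-Co2* (chrM:7637-7696, plus strand) and the last 57 of *Gm28661* (chr1:24614885-24614941) are shown, with the bases missing from the copy in capitals.
mt-Co2: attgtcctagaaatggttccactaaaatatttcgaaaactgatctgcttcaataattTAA
Gm28661: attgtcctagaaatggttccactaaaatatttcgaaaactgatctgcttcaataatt
The copies *Gm10925* of *mt-Atp6* (678 bases), *Gm28437* of *mt-Co3* (783 bases) and *Gm10222* of *mt-Nd4l* (294 bases) are likewise without a mismatch. *Gm28438*, the copy of *mt-Nd3* (complex I), differs from it at 1 of 345 bases, T3C, counted from the first base of the gene. The windows chrM:9459-9491 and chr1:24613087-24613119 show this base in capitals.
mt-Nd3: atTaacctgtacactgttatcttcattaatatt
Gm28438: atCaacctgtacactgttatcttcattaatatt
*Gm29216* matches the end of *mt-Co1* over 483 bases and differs at 1 of them, A1066T, as shown by the capital in chrM:6390-6423 and chr1:24616155-24616188.
mt-Co1: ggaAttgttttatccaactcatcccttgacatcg
Gm29216: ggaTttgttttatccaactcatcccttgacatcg
A read from any of these stretches that does not cover a differing base has the same letters in both places, so the deposited values of these genes and of their copies cannot be told apart by sequence.

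The nuclear subunit genes were among the abundant transcripts of the dental epithelium, and most had a slightly higher mean in cKO than in control libraries, but few passed a test. Of 94 nuclear genes, 86 were above 0 TPM in all 6 libraries and 3 were at 0 in all. The 87 whose mean over the 6 libraries was 1 TPM or more entered the test. Their median level was 203 TPM, beside 11.5 TPM over all 13719 genes tested, and 64 of them had a mean of at least 100 TPM. The 94 genes together were at 22366, 20254 and 25094 TPM in the control libraries, against 24890, 24961 and 24980 TPM in the cKO libraries. The cKO libraries lay close together and within the control range, between the second highest and highest control libraries. The means were 22571 ± 2427 TPM and 24944 ± 47.1 TPM (SD, n = 3), a difference of 10.5% (two-sided exact permutation test, p = 0.4, where 3 against 3 cannot go below 0.1). This overlap depended on the scale. With each library rescaled to its genes off the mitochondrial chromosome, the difference was 11.7% and the same test gave its smallest p, 0.1.

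A gene was counted as higher or lower when its unadjusted limma p was below 0.05 and its means differed by more than 20% of the control mean. Both thresholds are those in the methods of the study, but limma is not the test named there. All log2 fold changes (cKO over control) are on the log2(TPM + 1) scale, which understates changes of low genes. By these criteria 5 of the 87 nuclear genes (5.75%) were higher in cKO, beside 1.55% of all genes tested, and 0 were lower, beside 2.47%. The 5 were *Atp5md*, *Atp5mpl*, *Atp5j2*, *Ndufv2* and *Ndufb5*, and for each of them the exact two-sided permutation test of 3 against 3 libraries gave its smallest p, 0.1. None of the 5 had a Benjamini-Hochberg adjusted p from limma below 0.05 over all genes (1.00 each, and at least 0.425 in every alternative setting), beside 0.0146% of all genes. The log2 fold change was above 0 for 73 of the 87 genes (83.9%), beside 39.7% of all genes, and its median was 0.16, with a range from -0.35 to 0.45. Every cKO library was above every control library for 13 genes (14.9%, beside 3.51% of all genes), and below for *Atp5b* (beside 6.13%). Without replicate 3 of both groups, 11 were higher and 1 was lower, beside 2.47% and 6.78% of all genes, and the median was 0.25.

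**Figure D1:**
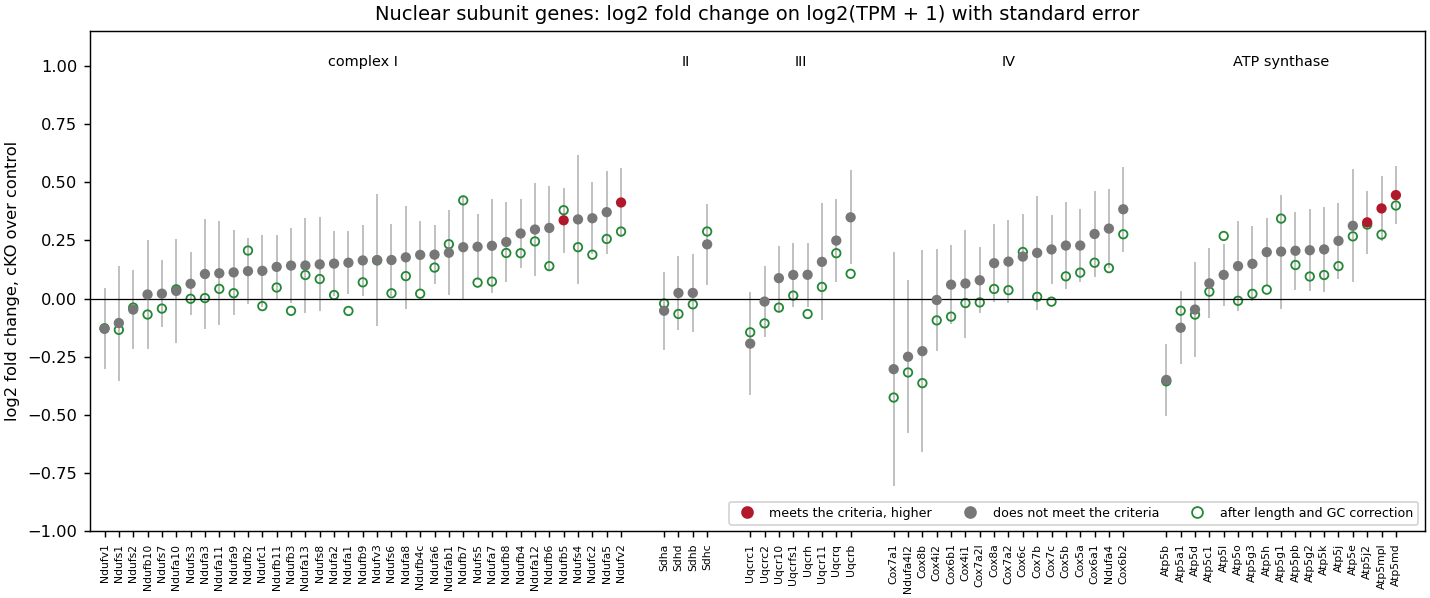
Log2 fold change (cKO over control, vertical axis, on log2(TPM + 1)) of the tested nuclear subunit genes, ordered within each complex; bars are limma standard errors, red points met the criteria and open green circles are values corrected for length and GC content of the transcript. Most grey and red points lie above 0 with bars that cross or approach 0, *Atp5b* lies below 0 by more than its bar, and the green circles lie lower for most genes; the *Sdhaf* genes are left out.

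Fold changes also ran with transcript length. All protein-coding genes with a longest transcript under 1000 bases had a median log2 fold change of 0.20, with 455 of 540 above 0, whereas those of 1000 bases or more had a median of -0.08, with 4168 of 11648 above 0. Of the nuclear subunit genes, 42 were under 1000 bases, with 38 above 0 and a median of 0.16, and 45 were longer, with 35 above 0 and a median of 0.14. Length was that of the longest annotated transcript, which need not be the one measured. For *Atp5l* (6310 bases), *Ndufb5* (3127 bases) and *Atp5j2* (2101 bases) that transcript has 1 exon. The split and the correction below may therefore use a wrong length for such genes. After each library was corrected for transcript length and GC content, the median of the 87 genes was 0.05, beside 0.00 over all genes, and 58 (66.7%) were above 0, beside 50.4%. Then 2 genes were higher (*Ndufb5* and *Sdhaf1*) and *Atp5b* was lower, beside 2.44% and 2.08% of all genes. The deviation of a library from the gene mean ran with GC content across the 87 genes with a Spearman's rho of 0.14, -0.40 and 0.56 in control replicates 1 to 3 and of -0.47, -0.49 and 0.51 in cKO replicates 1 to 3, a description over genes of the same libraries. The corresponding values over 12188 protein-coding genes were -0.09, -0.40 and 0.63, and -0.35, -0.43 and 0.52.

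**Figure D2:**
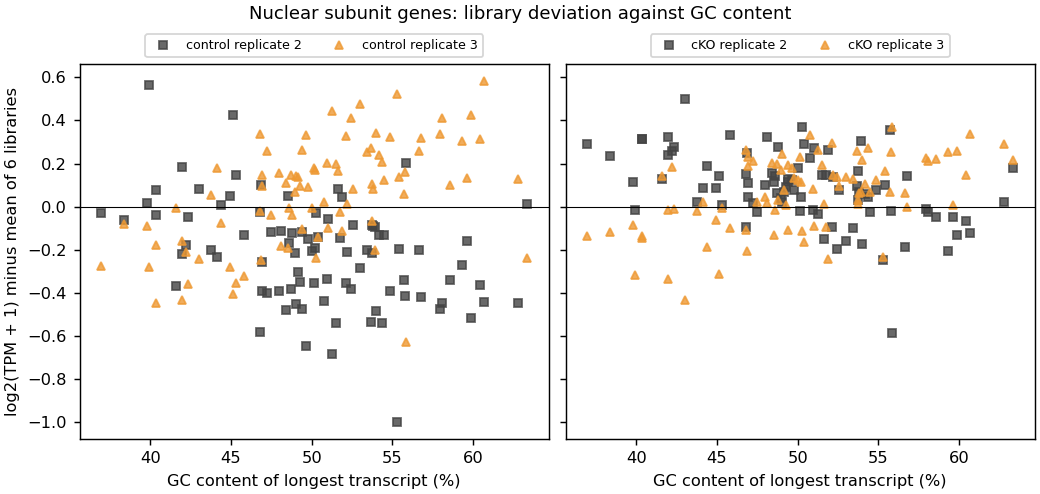
Deviation of log2(TPM + 1) from the mean of the 6 libraries (vertical axis) against GC content of the longest transcript in percent (horizontal axis) for the tested nuclear genes, in replicates 2 and 3 of control (left) and cKO (right). Each point is 1 gene. In replicate 3 of both groups the points rise with GC content (Spearman's rho 0.56 and 0.51), and in replicate 2 they fall (-0.40 and -0.49).

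Complex I takes electrons from NADH and has the most subunits, and 37 of its 39 nuclear genes were tested. Its summed level was 5870, 5354 and 6757 TPM in control libraries, against 6764, 6731 and 6698 TPM in cKO libraries, a difference of 12.3% (exact permutation test, p = 0.3) with overlapping groups. Of the 37 genes 34 had a log2 fold change above 0 (beside 39.7% of all genes tested), 2 were higher by the criteria (beside 1.55%) and 6 did not overlap between groups with cKO higher (beside 3.51%). *Ndufv2* (chr17:66078638-66101559), an iron-sulfur subunit of the NADH-oxidising module, was at 125, 127 and 132 TPM in control libraries, against 184, 186 and 146 TPM in cKO libraries. All cKO libraries were above all control libraries, with replicate 3 closest, and the log2 fold change was 0.41 (SE 0.15). After the length and GC correction it was 0.29 and did not meet the criteria. *Ndufb5* (chr3:32736990-32751566), an accessory subunit of the membrane arm, was at 197, 212 and 202 TPM in control libraries, against 257, 286 and 231 TPM in cKO libraries, again without overlap. Its log2 fold change was 0.34 (SE 0.14), and 0.38 after the correction, where it met the criteria as well. The correction took the length of *Ndufb5* from an annotated transcript of 3127 bases in 1 exon, which need not be the one measured. Whether the call depends on this length was not tested. Without replicate 3 of both groups the log2 fold change was 0.41 and no longer met the criteria.

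The flavoprotein *Ndufv1*, the partner of *Ndufv2* in the NADH-oxidising module, had the lowest log2 fold change of complex I, -0.13 (SE 0.17). It was at 76.4, 59.95 and 82.8 TPM in control libraries, against 65.7, 60.6 and 72.3 TPM in cKO libraries, with overlapping groups. The most abundant gene of the complex was the accessory subunit *Ndufa1*, at 544, 529 and 557 TPM in control libraries, against 676, 563 and 582 TPM in cKO libraries, without overlap and with a log2 fold change of 0.15 (SE 0.14). It was followed by the accessory subunit *Ndufa2*, at 347, 326 and 354 TPM and 406, 400 and 338 TPM, whose groups overlapped. *Ndufb4*, a subunit of the membrane arm, was the lowest tested gene of the complex, at 29.8, 30.01 and 35.2 TPM in control libraries, against 38.4, 38.5 and 38.7 TPM in cKO libraries (log2 fold change 0.28, SE 0.15). The groups of *Ndufb4* did not overlap. Its level cannot be taken alone, since *Ndufb4c* (chr15:73809507-73809896), annotated as a processed pseudogene, is identical to the *Ndufb4* transcript over its whole 390 bases. *Ndufb4c* was given 216, 227 and 220 TPM in control libraries, against 253, 284 and 222 TPM in cKO libraries, 5.72 to 7.55 times the TPM of *Ndufb4* across the 6 libraries. *Ndufb4c* was chosen by its name, so it is included in the tested genes, the counts and the sum of complex I. *Ndufa11b* and *Ndufs6b* are annotated as processed pseudogenes too. *Ndufa11b* was at 0 in every library, and *Ndufs6b* was above 0 in 1.

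Complex II, succinate dehydrogenase, links the chain to the TCA cycle and is wholly nuclear. Its 4 subunit genes summed to 415, 364 and 444 TPM in control libraries, against 416, 416 and 430 TPM in cKO libraries, a difference of 3.12% (exact permutation test, p = 0.7), and none met the criteria. *Sdhb*, the iron-sulfur subunit, was the highest, at 177, 164 and 225 TPM and 190, 176 and 206 TPM (log2 fold change 0.02, SE 0.17). The membrane anchor *Sdhc* had the highest log2 fold change of the 4, 0.23 (SE 0.17), at 75.7, 62.8 and 91.1 TPM in control libraries, against 87.1, 86.0 and 94.5 TPM in cKO libraries. The catalytic flavoprotein *Sdha* was the lowest, at 78.1, 69.2 and 58.5 TPM and 64.0, 72.5 and 61.0 TPM, with a log2 fold change of -0.05 (SE 0.17). Groups of all 4 subunits overlapped. The assembly factors were lower in level. *Sdhaf1* was at 5.37, 4.62 and 6.73 TPM in control libraries, against 7.24, 7.89 and 8.58 TPM in cKO libraries, and *Sdhaf4* at 38.3, 38.0 and 33.1 TPM and 53.2, 52.8 and 38.9 TPM. Neither gene's groups overlapped, and their log2 fold changes were 0.45 (SE 0.21) and 0.38 (SE 0.18). *Sdhaf2* (log2 fold change 0.14, SE 0.21) and *Sdhaf3* (-0.24, SE 0.29) overlapped between groups.

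Complex III, the cytochrome bc1 complex, passes electrons from ubiquinol to cytochrome c. Its 8 nuclear genes summed to 2668, 2452 and 3124 TPM in control libraries, against 3039, 2927 and 2966 TPM in cKO libraries, a difference of 8.35% (exact permutation test, p = 0.4), and none met the criteria or separated the groups. The small subunits led in level, with the hinge subunit *Uqcrh* at 584, 618 and 620 TPM in control libraries, against 680, 700 and 583 TPM in cKO libraries (log2 fold change 0.10, SE 0.14). *Uqcr11* spread widely within control, at 541, 417 and 802 TPM, and was at 644, 545 and 716 TPM in cKO libraries. *Uqcrb*, a ubiquinone-binding subunit, had the highest log2 fold change, 0.35 (SE 0.20), and the core subunit *Uqcrc1* the lowest, -0.19 (SE 0.22). *Uqcrc1* was at 246, 189 and 320 TPM in control libraries, against 191, 206 and 253 TPM in cKO libraries, within the control range. The Rieske iron-sulfur protein *Uqcrfs1* was at 100.02, 87.5 and 98.1 TPM and 100.09, 109 and 97.5 TPM.

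Complex IV, cytochrome c oxidase, has tissue isoforms of several nuclear subunits, and the epithelium held mainly the general ones. Of 21 nuclear genes 17 were tested, and their sum was 5665, 5128 and 6304 TPM in control libraries, against 6382, 6418 and 6276 TPM in cKO libraries, a difference of 11.6% (exact permutation test, p = 0.2), with 0 meeting the criteria. *Cox4i1* was the highest, at 899, 687 and 1249 TPM in control libraries, against 880, 923 and 1086 TPM in cKO libraries, with a log2 fold change of 0.06 (SE 0.23). The oxygen-regulated isoform *Cox4i2* was at 66.5, 45.7 and 76.9 TPM and 55.4, 68.0 and 61.3 TPM, so that *Cox4i1* was 13.5 to 17.7 times as high in the 6 libraries. *Cox6c* was at 660, 771 and 607 TPM in control libraries, against 844, 855 and 623 TPM in cKO libraries, with overlap. The heart and muscle isoforms were near 0. *Cox7a1* reached at most 2.80 TPM, with the lowest log2 fold change of complex IV (-0.30, SE 0.50, groups overlapping), *Cox8b* at most 2.64 TPM, and *Cox6a2* at most 0.23 TPM, whereas the counterparts *Cox6a1* (503 to 838 TPM), *Cox7a2* (214 to 305 TPM) and *Cox8a* (509 to 750 TPM) were abundant in every library. *Cox7a2l*, which joins complexes III and IV into supercomplexes, was at 343 to 416 TPM (log2 fold change 0.08, SE 0.14). The testis isoform *Cox8c* and *Cox6c2*, annotated as a processed pseudogene, were at 0 in every library. The testis isoform *Cox7b2* was above 0 in 1, while *Cox7b* was at 115 to 204 TPM.

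*Cox6b2*, the testis isoform of the subunit that joins the monomers of complex IV, was measured in every library, at 20.8, 20.1 and 26.9 TPM in control libraries, against 28.8, 33.2 and 27.0 TPM in cKO libraries. The groups did not overlap, though control replicate 3 and cKO replicate 3 nearly met, and the log2 fold change of 0.38 (SE 0.18) was the highest of complex IV. The general isoform *Cox6b1* was at 529, 407 and 592 TPM and 522, 509 and 543 TPM (log2 fold change 0.06, SE 0.17). The ratio of *Cox6b1* to *Cox6b2* was 22.6 ± 2.61 in control and 17.9 ± 2.39 in cKO libraries (SD, n = 3, exact permutation test, p = 0.1), without overlap, and this ratio was chosen after its values were seen. *Ndufa4* was at 451, 519 and 471 TPM in control libraries, against 647, 662 and 482 TPM in cKO libraries, and its hypoxia-induced relative *Ndufa4l2* at 50.0, 30.9 and 64.0 TPM and 27.8, 38.9 and 53.8 TPM. Their log2 fold changes were 0.30 (SE 0.17) and -0.25 (SE 0.33), and the groups of both overlapped.

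The ATP synthase held 3 of the 5 higher genes and the 1 gene lower in every cKO library. Its 18 nuclear genes, 17 of them tested, summed to 7678, 6889 and 8409 TPM in control libraries, against 8207, 8382 and 8541 TPM in cKO libraries, a difference of 9.38% (exact permutation test, p = 0.3). Of the 17 genes 3 were higher by the criteria (17.6%, beside 1.55% of all genes tested). Without overlap, 3 had cKO higher (beside 3.51%) and 1 had cKO lower (beside 6.13%). After the length and GC correction 0 were higher and 1 was lower, beside 2.44% and 2.08% of all genes. *Atp5md* (chr19:47083464-47090647), a small membrane subunit found where the enzyme forms dimers, was at 609, 655 and 638 TPM in control libraries, against 864, 886 and 840 TPM in cKO libraries. The groups were far apart relative to their spread, 634 ± 23.2 TPM and 863 ± 22.6 TPM (SD, n = 3), and the log2 fold change of 0.45 (SE 0.13) met the criteria in 17 of 19 alternative settings. After the length and GC correction it was 0.40 and did not meet the criteria. *Atp5mpl* (chr12:111961375-111966977), another small proteolipid of the membrane part, was at 514, 588 and 545 TPM in control libraries, against 726, 774 and 658 TPM in cKO libraries (log2 fold change 0.39, SE 0.14, and 0.28 after the correction, where it did not meet the criteria). *Atp5j2* (chr5:145183698-145192062), subunit f of the membrane part, was at 381, 402 and 461 TPM and 528, 525 and 504 TPM (log2 fold change 0.33, SE 0.14). It met the criteria in 7 of 19 alternative settings. All 3 genes separated the groups. All 3 belong to the membrane-embedded part of the enzyme, but so do the c subunit genes *Atp5g1*, *Atp5g2* and *Atp5g3*, whose groups overlapped and which did not meet the criteria.

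*Atp5b* (chr10:128083273-128090391), the catalytic beta subunit, had the highest mean over the 6 libraries of all nuclear genes, though *Cox4i1* was above it in control replicate 3 and in cKO replicates 1 and 3. It was at 1245, 1083 and 1148 TPM in control libraries, against 783, 923 and 1032 TPM in cKO libraries. No cKO library reached the lowest control library, and the log2 fold change was -0.35 (SE 0.16). *Atp5b* did not meet the criteria as tested or in 12 of 19 alternative settings, and was lower by them in the others. These included the length and GC correction (-0.36) and leaving out replicate 3 of both groups (-0.45). They also included quantile normalization (-0.49) and rescaling to nuclear protein-coding genes (-0.39). *Atp5a1*, the alpha subunit that forms the catalytic ring with it, was at 506, 401 and 479 TPM in control libraries, against 376, 432 and 461 TPM in cKO libraries, with overlap (log2 fold change -0.13, SE 0.16). The 3 genes of the proton-carrying c subunit encode the same mature protein at unlike levels. *Atp5g3* was at 399 to 556 TPM, *Atp5g1* at 223 to 422 TPM and *Atp5g2* at 12.8 to 18.0 TPM, and their log2 fold changes were 0.15, 0.20 and 0.21, with SEs of 0.16, 0.25 and 0.18, and none met the criteria. A second row named *Atp5o* was above 0 in 1 library only.

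**Figure D3:**
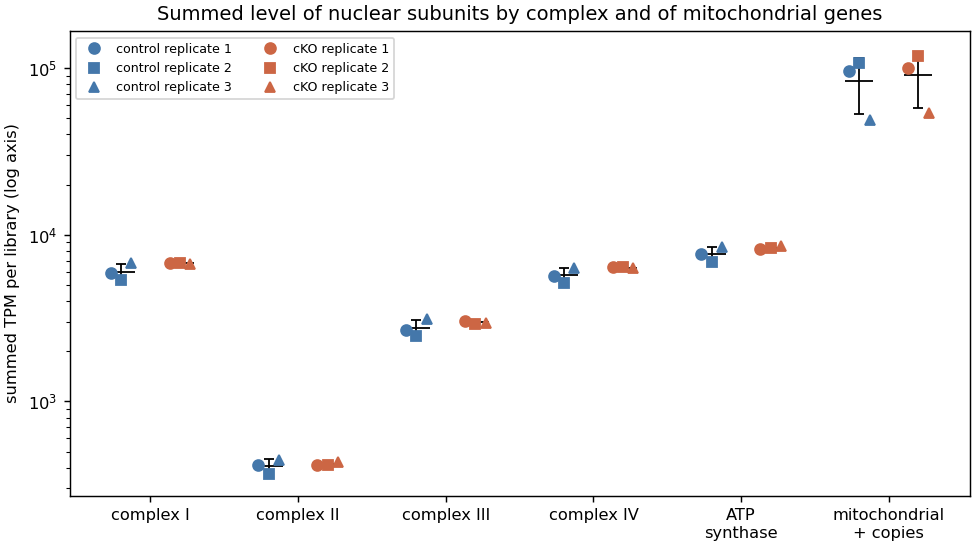
Summed TPM per library (log axis) of the nuclear genes of each complex and of the 13 mitochondrial genes with their nuclear copies added; symbols give the replicate, colours the group, and the bars the mean and SD (n = 3). In each nuclear complex the cKO libraries lie close together inside or just above the control range, and for the mitochondrial genes replicate 3 lies below the other libraries in both groups.

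Promoters of nuclear respiratory genes are known for sites of the factors NRF1, GABP (an ETS factor), YY1 and ERR, and their letters were counted, on both strands, in RefSeq promoter windows of 300 bases (GRCm38.p6, 250 bases before to 50 after the start). Windows were found for 72 of the 87 tested nuclear genes, 77 windows in all. The NRF1 letters GCGCANGCG were in 29.9% of them and in 6.25% of all 32851 windows, and the form GCGCATGCG, which the first motif includes, in 10.4% and 1.75%. The ETS core CCGGAAG was in 26.0% and 8.86%, the YY1 motif AAGATGGC in 13.0% and 2.75%, and the ERR motif TCAAGGTCA in 2.6% and 0.423%. The TATA box letters TATAAA were in 11.7% and 13.6%. These shares describe letters and not binding. The 22 genes with the NRF1 letters had a median log2 fold change of 0.16 and the 50 without them 0.16, and the 20 with the ETS core had a median level of 339 TPM, beside 189 TPM for the 52 without. Shown, with motif letters in capitals, are the windows of the 3 genes of highest level that hold GCGCATGCG, *Cox6a1* (chr5:115348909-115349208, minus strand), *Atp5l* (chr9:44920693-44920992, minus strand) and *Uqcr11* (chr10:80406772-80407071, minus strand), and of the higher genes *Atp5md* (chr19:47090598-47090897, minus strand) and *Atp5j2* (chr5:145191492-145191791, minus strand).
Cox6a1: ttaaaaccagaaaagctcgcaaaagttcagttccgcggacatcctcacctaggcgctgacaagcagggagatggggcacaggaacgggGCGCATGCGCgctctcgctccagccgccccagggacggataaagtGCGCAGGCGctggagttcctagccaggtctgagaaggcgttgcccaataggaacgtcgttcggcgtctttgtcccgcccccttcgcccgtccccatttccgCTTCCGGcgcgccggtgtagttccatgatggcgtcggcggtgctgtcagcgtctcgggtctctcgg
Atp5l: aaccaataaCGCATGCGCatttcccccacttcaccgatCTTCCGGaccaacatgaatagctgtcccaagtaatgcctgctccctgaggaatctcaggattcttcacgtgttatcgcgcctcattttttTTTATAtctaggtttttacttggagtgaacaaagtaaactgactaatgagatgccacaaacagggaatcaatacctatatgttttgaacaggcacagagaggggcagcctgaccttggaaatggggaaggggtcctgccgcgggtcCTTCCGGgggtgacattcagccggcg
Uqcr11: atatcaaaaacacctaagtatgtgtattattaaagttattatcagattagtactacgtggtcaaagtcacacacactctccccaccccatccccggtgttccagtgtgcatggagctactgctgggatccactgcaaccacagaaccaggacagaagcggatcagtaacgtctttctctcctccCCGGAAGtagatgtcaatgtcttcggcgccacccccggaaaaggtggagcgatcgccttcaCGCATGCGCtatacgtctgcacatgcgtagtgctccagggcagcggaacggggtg
Atp5md: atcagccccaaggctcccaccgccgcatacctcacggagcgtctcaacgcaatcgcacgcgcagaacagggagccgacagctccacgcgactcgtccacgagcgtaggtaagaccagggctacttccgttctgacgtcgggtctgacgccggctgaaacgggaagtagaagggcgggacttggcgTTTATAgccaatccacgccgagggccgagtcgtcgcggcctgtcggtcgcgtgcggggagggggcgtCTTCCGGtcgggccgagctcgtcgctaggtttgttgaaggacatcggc
Atp5j2: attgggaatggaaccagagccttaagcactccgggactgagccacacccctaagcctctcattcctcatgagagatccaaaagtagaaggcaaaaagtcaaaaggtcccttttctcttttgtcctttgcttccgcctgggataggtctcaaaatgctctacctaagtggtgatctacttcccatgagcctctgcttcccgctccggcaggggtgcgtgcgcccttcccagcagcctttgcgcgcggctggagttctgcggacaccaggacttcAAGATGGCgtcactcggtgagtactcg
In *Cox6a1* NRF1 letters stand at bases 89 to 98, where 2 matches on opposite strands overlap, and at 134 to 142, and the ETS core at 235 to 241. *Atp5l* holds NRF1 letters at 10 to 18 and ETS cores at 39 to 45 and 275 to 281, and *Uqcr11* holds them at 246 to 254 and 185 to 191. *Atp5md* holds the ETS core at 253 to 259 and TATA letters at 186 to 191, and *Atp5j2* the YY1 motif at 274 to 281. The windows of *Ndufb5* and *Ndufv2* hold none of these letters. *Atp5mpl* is named only.

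The 13 mitochondrial genes took 2.82% to 7.42% of the TPM of a library, and their level followed the replicate more than the group. Their sum was 59557, 68374 and 27951 TPM in control libraries, against 61010, 73287 and 33475 TPM in cKO libraries, with replicate 3 lowest in both groups, and the groups overlapped (difference 7.63%, exact permutation test, p = 0.7). With the 6 copies of chromosome 1 added, each weighted by its length, it was 95700, 108038 and 48998 TPM in control libraries, against 100411, 118779 and 53867 TPM in cKO libraries (difference 8.04%, exact permutation test, p = 0.7). Replicate 3 was then at 0.481 of the mean of replicates 1 and 2 in control and 0.492 in cKO, whereas for the nuclear subunits these ratios were 1.18 and 1.00. With *mt-Atp8* left out, the sums differed by 18.0% alone and by 13.0% with the copies (exact permutation test, p = 0.5 each). Of the 13 genes, 11 were lowest in replicate 3 in both groups, and 12 with the copies added, the exception being *mt-Nd3*. By limma 1 gene was higher by the criteria and 0 lower, beside 1.55% and 2.47% of all genes, with 10 log2 fold changes above 0 and a median of 0.24. Without replicate 3 of both groups, 3 were higher (*mt-Nd3*, *mt-Nd6* and *mt-Co3*), beside 2.47% of all genes, and *mt-Co2* was lower, beside 6.78%.

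**Figure D4:**
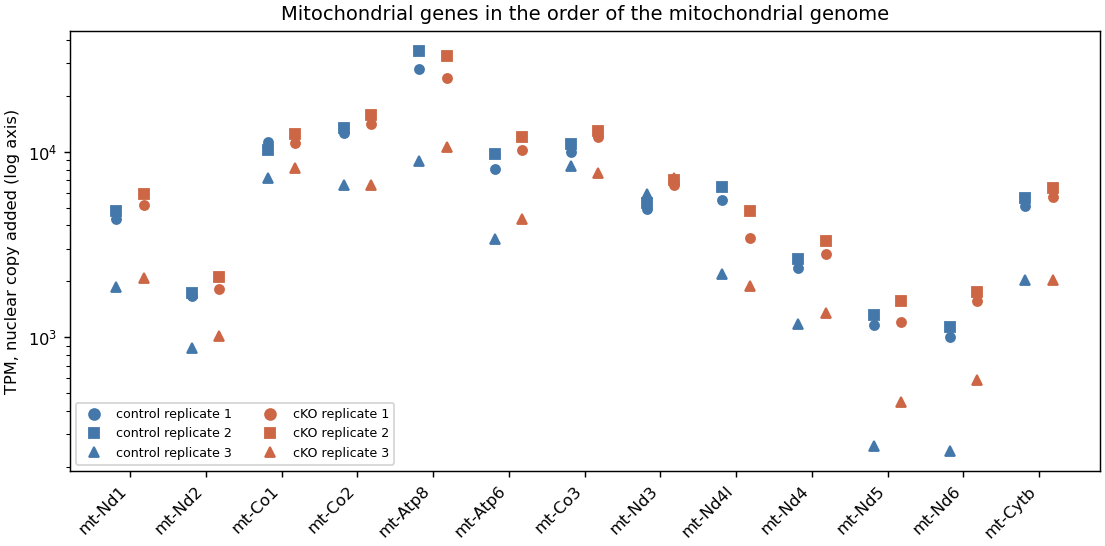
TPM (log axis) of the 13 mitochondrial genes in genome order, with the nuclear copy added for the 6 genes that have one, in control (blue, left) and cKO (orange, right) libraries; symbols give the replicate. The triangles of replicate 3 lie lowest in both groups for every gene except *mt-Nd3*, whose cKO libraries (6586 to 7207 TPM) lie above its control libraries (4911 to 5899 TPM).

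Of the 7 mitochondrial genes of complex I, which belong to its proton-pumping membrane arm, *mt-Nd3* was the 1 that met the criteria. It was at 2198, 2935 and 3976 TPM in control libraries, against 4676, 4271 and 5892 TPM in cKO libraries. All cKO libraries were above all control libraries, and the log2 fold change was 0.73 (SE 0.25, adjusted p = 1.00 from limma). Its copy *Gm28438* was at 2737, 2391 and 1940 TPM in control libraries, between 32.6% and 55.2% of the sum with the gene by length, and between 18.2% and 39.4% in cKO libraries, with a log2 fold change of -0.28 (SE 0.28). With the copy added, *mt-Nd3* was at 4911, 5305 and 5899 TPM in control libraries, against 6586, 7043 and 7207 TPM in cKO libraries, still without overlap. The log2 fold change was then 0.37 (SE 0.14), and the criteria were met. After the length and GC correction, without the copy, it was 0.49 and did not meet the criteria.

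The log2 fold change of *mt-Nd4l* had the opposite sign once its copy was added. Alone it was at 907, 1139 and 506 TPM in control libraries, against 996, 1458 and 811 TPM in cKO libraries (log2 fold change 0.39, SE 0.34), and with *Gm10222* added at 5520, 6461 and 2197 TPM and 3438, 4781 and 1887 TPM (-0.45, SE 0.48), overlapping both times. For *mt-Nd1*, *mt-Nd2*, *mt-Nd4* and *mt-Nd5* no copy passed the search and its filter on level. Their log2 fold changes were 0.24, 0.21, 0.26 and 0.36, with SEs from 0.36 to 0.71. *mt-Nd6*, the only protein gene on the other strand, was at 1003, 1141 and 244 TPM in control libraries, against 1570, 1744 and 589 TPM in cKO libraries (log2 fold change 0.84, SE 0.66). Its neighbour *mt-Nd5*, which overlaps it by 14 bases, was at 1170, 1320 and 259 TPM and 1212, 1566 and 446 TPM. The ratio of *mt-Nd6* to *mt-Nd5*, chosen after its values were seen, was 0.857, 0.865 and 0.940 in control and 1.29, 1.11 and 1.32 in cKO libraries, so that the groups did not overlap (exact permutation test, p = 0.1). The kit named in the labels is not said to keep strand, so reads of the overlap and of transcripts opposite *mt-Nd6* cannot be told apart from its own.

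In complex III, *mt-Cytb* was at 5082, 5612 and 2025 TPM in control libraries, against 5704, 6405 and 2046 TPM in cKO libraries (log2 fold change 0.12, SE 0.54). The 3 core subunits of complex IV all have a copy. *mt-Co2* was at 1602, 1648 and 301 TPM in control libraries, against 484, 466 and 191 TPM in cKO libraries, so that control replicate 3 lay below cKO replicates 1 and 2. Its log2 fold change was -1.40 (SE 0.70), the lowest of all tested genes of the set and outside the criteria, and -1.77 without replicate 3 of both groups, where it met them (adjusted p = 0.00723 from limma, the lowest over all settings, the highest being 1.00). That setting was chosen after the data were seen. It keeps only replicates 1 and 2 of each group, and so leaves out control replicate 3, which made the groups overlap. After the length and GC correction of all libraries *mt-Co2* also met the criteria (-1.63). The copy *Gm28661* was at 11003, 11848 and 6321 TPM in control libraries, against 13601, 15400 and 6422 TPM in cKO libraries. It took 87.2% to 95.4% of the sum in control and 96.6% to 97.1% in cKO libraries. Together *mt-Co2* and *Gm28661* were at 12556, 13444 and 6595 TPM in control libraries, against 14026, 15799 and 6585 TPM in cKO libraries, with a log2 fold change of 0.13 (SE 0.41), so that the direction turned when the values of the identical stretches were summed. *mt-Co3* was at 292, 374 and 954 TPM in control libraries, against 709, 606 and 686 TPM in cKO libraries, and with *Gm28437*, which took 88.6% to 97.1% of the sum, at 9901, 10958 and 8374 TPM and 12020, 12939 and 7637 TPM (log2 fold change 0.50, SE 0.41, and 0.13, SE 0.24). For *mt-Co1* the copy covers only the end of the gene and took 4.22% to 9.18%, and the log2 fold change was 0.19 alone and 0.15 with it.

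**Figure D5:**
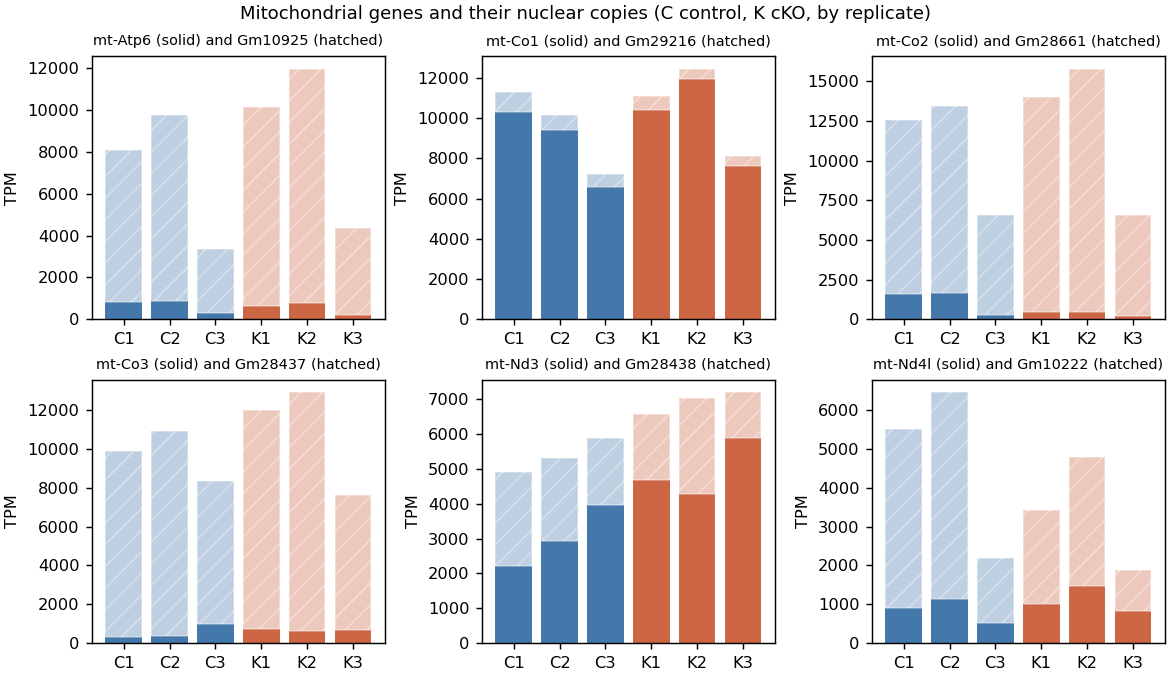
TPM of the 6 mitochondrial genes that have an annotated nuclear copy (solid) and of that copy, weighted by its length over that of the gene (hatched), in control libraries C1 to C3 (blue) and cKO libraries K1 to K3 (orange). For *mt-Co2*, *mt-Co3* and *mt-Atp6* the hatched part is over 87% of each bar, and the solid part of *mt-Co2* is 301 to 1648 TPM in control libraries, against 191 to 484 TPM in cKO libraries while the whole bars of the groups overlap.

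Of the mitochondrial ATP synthase genes, *mt-Atp8* had the highest TPM of all 107 genes, at 27805, 34742 and 8892 TPM in control libraries, against 24806, 32757 and 10540 TPM in cKO libraries (log2 fold change 0.00, SE 0.60). The gene is only 204 bases long, and how this bears on its TPM was not tested. *mt-Atp8* and *mt-Atp6* are made as 1 transcript, yet *mt-Atp6* was at 833, 891 and 321 TPM and 653, 764 and 220 TPM, and with its copy *Gm10925* at 8101, 9735 and 3380 TPM and 10149, 11971 and 4354 TPM. Its log2 fold change was -0.37 alone (SE 0.56) and 0.33 with the copy (SE 0.50). The 22 mitochondrial tRNA genes were listed at 0 in every library. The ribosomal RNA gene *mt-Rnr1*, not one of the 107 and chosen after its values were seen, was at 176, 182 and 171 TPM in control libraries, against 330, 293 and 282 TPM in cKO libraries (log2 fold change 0.77, SE 0.13, adjusted p = 0.747 from limma), whereas *mt-Rnr2* overlapped between groups (0.39, SE 0.32).

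Of the genes that serve the chain, few met the criteria. Of 48 assembly factors 47 were tested, 36 had a log2 fold change above 0 (76.6%, beside 39.7% of all genes), and 2 were higher (beside 1.55%): *Cox20*, a chaperone of the COX2 subunit, at 86.2, 103 and 77.4 TPM in control libraries, against 121, 133 and 112 TPM in cKO libraries, and *Cmc1*, an assembly factor of complex IV, at 15.1, 11.1 and 14.5 TPM and 28.2, 26.8 and 15.1 TPM. After the length and GC correction *Cox20* (0.23) and *Cmc1* (0.55) did not meet the criteria, while 2 other genes of the list were higher (beside 2.44% of all genes). The median of the list was 0.18, beside -0.07 over all genes. Of 78 genes of the mitochondrial ribosome, which translates the 13 mitochondrial mRNAs, 67 were above 0 (85.9%) and 2 were higher (beside 1.55% of all genes), *Mrps25* (log2 fold change 0.57, SE 0.20) and *Mrpl57* (0.50, SE 0.17), with a median of 0.15. After the correction *Mrps25* met the criteria (0.75) and *Mrpl57* did not (0.46), and 3 genes of this list were higher in all. Neither the 12 tested electron carriers and transporters nor the 16 genes of mitochondrial DNA expression nor the 22 rows of glycolysis held a gene that met the criteria, and their medians were 0.02, 0.06 and -0.11. After the correction 1 gene of mitochondrial DNA expression was higher. Of 17 genes of pyruvate dehydrogenase and the TCA cycle, *Dlst*, a subunit of the 2-oxoglutarate dehydrogenase complex, was lower, at 121, 144 and 122 TPM in control libraries, against 95.8, 100.5 and 107 TPM in cKO libraries (log2 fold change -0.34, SE 0.14, and -0.28 after the correction, where it did not meet the criteria). Of all genes, 2.47% were lower.

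Of 10 regulators of mitochondrial biogenesis 2 had a log2 fold change above 0 (beside 39.7% of all genes), with a median of -0.28, beside -0.07. *Ppargc1b*, a coactivator of respiratory genes, was the 1 gene of them that was lower (beside 2.47% of all genes). It was at a low level, 4.25, 5.78 and 3.38 TPM in control libraries, against 1.82, 2.69 and 2.47 TPM in cKO libraries. The groups did not overlap, and the log2 fold change was -0.70 (SE 0.26, adjusted p = 1.00 from limma). After the length and GC correction 2 of the 10 regulators were lower, *Ppargc1b* (-0.55) among them, beside 2.08% of all genes.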

How the data were processed

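The 6 RNA-seq libraries of dental epithelium were grouped by their labels. Reads had been trimmed by the authors (SeqPrep, Sickle) and aligned with HISAT2; the abundance tool is RSEM in the paper's methods and StringTie in the submitters' processing notes. The values deposited are TPM, as library sums of 983952 to 993946 show, although the methods name FPKM. The build is not given in the sources used here, and 99.5% of the gene identifiers were in the GENCODE annotation of GRCm38. Depth is unknown.

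From the deposited TPM, log2(TPM + 1) of 13719 genes (mean 1 TPM or more) was tested with limma (3.58.1, R 4.3.3, mean-variance trend), with Benjamini-Hochberg adjustment over all genes. Sums and ratios were compared by two-sided exact permutation (scipy 1.17.1). Nothing says that the pools came from separate litters or days, so p-values measure the spread between libraries. The length and GC correction used splines of 4 degrees of freedom on the longest annotated transcript of each gene. Copies were found with BLAST 2.17.0 (at least 99% identity over 90% of the copy) among genes of the table with a mean of 1 TPM or more. The fit was tested on simulated data.

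Members and lists were chosen with earlier results of these data known. Named were the genes of highest and lowest level and fold change in each complex, genes that met the criteria, tissue isoforms, all mitochondrial genes and list genes that met the criteria; other names were added for their role or after their values were seen. Adding copies, leaving out replicate 3 of both groups, leaving *mt-Atp8* out of the sum, rescaling mitochondrial genes to genes off their chromosome, the 1000-base split, the ratios and *mt-Rnr1* were chosen after seeing the data. Alternatives for counts were not run, since the table holds TPM.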

Additional observations from a re-analysis of the deposited data

How the results depend on the processing

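The 5 nuclear genes that met the criteria became 3 after quantile normalization and 3 after the length and GC correction (2 higher, 1 lower each). They became 1 (higher) without the mean-variance trend. By Student's test on TPM, the test the study's methods name, 9 met them (8 higher, and *Atp5b* lower). Without replicate 3 of both groups 12 did (11 higher, 1 lower), and 0 did at an adjusted p below 0.05 from limma (5 at the unadjusted p). Leaving out 1 library gave 1 to 11. It gave 1 (higher) without control replicate 1, cKO replicate 1 or cKO replicate 2, and 3 (2 higher, 1 lower) without control replicate 2. It gave 10 (all higher) without control replicate 3 and 11 (10 higher, 1 lower) without cKO replicate 3. Where no share of all genes is given for a setting, its count cannot be set against that share. The 1 mitochondrial gene became 0 without the filter, after quantile normalization, after median-ratio scaling, by Student's test and at an adjusted p below 0.05 (1 at the unadjusted p). After the length and GC correction 1 gene met the criteria in the opposite direction (*mt-Co2*, lower), and without replicate 3 of both groups 4 genes met them, 3 higher and 1 lower. Leaving out 1 library gave 0 to 3: 0 without control replicate 1, cKO replicate 1 or cKO replicate 3, and 3 without control replicate 3. The difference of the mitochondrial sum was -12.6% without control replicate 3 and -9.08% without cKO replicate 2, and 29.2% without cKO replicate 3. That of the nuclear sum was 5.11% to 17.1%. It was 11.7% after rescaling to genes off the mitochondrial chromosome (exact permutation test, p = 0.1). The median log2 fold change of all genes was -0.07, and it shifted to -0.11 after rescaling to nuclear protein-coding genes, -0.18 without control replicate 3 and -0.17 without cKO replicate 2. The cause of these changes was not tested beyond the fewer libraries.

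With the replicate number as a block, 8 nuclear genes met the criteria (all higher): *Atp5j2* did not, and *Ndufa5*, *Uqcrb*, *Sdhaf1* and *Sdhaf4* did. Of the mitochondrial genes 4 met them (*mt-Nd3*, *mt-Nd4l* and *mt-Nd6* higher, *mt-Co2* lower). With the block and the length and GC correction together, 5 nuclear genes did (4 higher, and *Atp5b* lower). Of the mitochondrial genes 4 did (2 higher, and *mt-Co2* and *mt-Atp6*, without their copies, lower). Shares of all genes are not given for these settings. Deviations of same-numbered libraries had correlations of -0.08, 0.29 and 0.40 across all tested genes, and of 0.41, 0.78 and 0.84 across the tested members. In both, 2 of 3 control libraries correlated best with the cKO library of their own number; across members, control replicate 1 had 0.41 with cKO replicate 1 and 0.47 with cKO replicate 2. The pairing was judged on all tested genes, where 1 correlation was below 0, so the numbers were not taken to pair the samples; on the members alone, all 3 were above 0.1.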
